A study of Mus musculus with 13 samples.

Results

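The 10 LIM homeobox genes Lhx1, Lhx2, Lhx3, Lhx4, Lhx5, Lhx6, Lhx8, Lhx9, Isl1 and Isl2 were read in 5 lists of ChIP-seq peaks from mouse embryonic stem cells (mESCs). They were taken by name and not by any value in the lists, but with earlier results of these data known. They are 10 of the 22367 protein-coding genes that the GENCODE annotation of the mm9 build starts on chromosomes 1 to 19, X and Y. ChIP-seq sequences the DNA that an antibody pulls down, and a peak is a stretch where these sequences pile up above background. For each gene the first annotated transcription start and 1 kb on either side of it, the gene body and 10 kb on either side of the start were searched for peaks.

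LIM homeobox proteins are transcription factors that bind DNA through a homeodomain and carry a pair of LIM domains, zinc fingers that bind other proteins. Through the adaptor LDB1 they form complexes that set the identity of neurons, pituitary, limb, heart and gonad during development, and their combinations distinguish classes of motor neurons and interneurons. Many genes of this kind are silent in mESCs, and such developmental genes are well-known targets of the Polycomb repressive complex PRC2, which trimethylates lysine 27 of histone H3 (H3K27me3). AEBP2 is an accessory subunit of the form of PRC2 that also holds JARID2.

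Endogenous AEBP2 and H3K27me3 had 2 lists each, for replicates 1 and 2, and FS2-AEBP2, which is AEBP2 with an N-terminal Flag-StrepII tag expressed from a plasmid, had 1 list and no replicate. All 5 samples were labelled as wild-type cells of the male line 129/1 XY grown in serum with LIF and without any treatment, although E14 mESCs are given in the methods for the tagged protein. The labels name the antibody of the mark as anti-H3K27 without a methylation state, and H3K27me3 is the name in the paper. ChIP for the tagged protein followed another protocol, with blocked beads, so differences between FS2-AEBP2 and the endogenous lists cannot be told apart from the protocol. The replicates were described as biological, with no word on separate cultures. The lists held 2877 and 6779 AEBP2 peaks, 2884 FS2-AEBP2 peaks, and 14112 and 9275 H3K27me3 peaks, with median lengths of 1193, 855, 893, 2073 and 2244 bp. Each peak has a whole-number score of unknown scale, which was read only against the other peaks of its own list, as the percentage of them with a lower score. The lists hold no read counts and the depth behind them is unknown, so that the lack of a peak does not show a lack of binding, and no value below was tested.

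The members differed in the number of AEBP2 lists with a peak within 1 kb of their first start, and sequences are shown for this reason. Lhx3 and Isl2 each lacked a peak in 1 of the 3 AEBP2 lists. Shown are 6 stretches of 200 bp that end at the base before an annotated start (mm9, each given 5′ to 3′ along its gene, with every CG in capitals). At Lhx3 and Isl2 the 2001 bp around the first start are poor in CG and those around a start further along the gene are richer, while Lhx4 and Isl1 are their closest relatives among the members. None of the 6 stretches touches an annotated exon.
Lhx3-002, first start, chr2:26063770-26063969, minus strand: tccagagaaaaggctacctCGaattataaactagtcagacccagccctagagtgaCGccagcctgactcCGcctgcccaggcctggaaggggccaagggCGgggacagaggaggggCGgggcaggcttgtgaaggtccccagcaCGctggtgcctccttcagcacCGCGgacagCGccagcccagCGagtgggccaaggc
Lhx3-001, downstream start, chr2:26062096-26062295, minus strand: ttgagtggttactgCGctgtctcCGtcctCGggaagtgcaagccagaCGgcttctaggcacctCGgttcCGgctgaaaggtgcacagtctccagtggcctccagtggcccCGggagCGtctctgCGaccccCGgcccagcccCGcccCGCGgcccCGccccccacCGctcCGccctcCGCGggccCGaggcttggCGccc
Lhx4, first start, chr1:157589158-157589357, minus strand: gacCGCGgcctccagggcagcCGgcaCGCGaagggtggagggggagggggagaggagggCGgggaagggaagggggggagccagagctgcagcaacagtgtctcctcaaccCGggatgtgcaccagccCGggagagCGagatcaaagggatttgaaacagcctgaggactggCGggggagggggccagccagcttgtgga
Isl2-004, first start, chr9:55386279-55386478, plus strand: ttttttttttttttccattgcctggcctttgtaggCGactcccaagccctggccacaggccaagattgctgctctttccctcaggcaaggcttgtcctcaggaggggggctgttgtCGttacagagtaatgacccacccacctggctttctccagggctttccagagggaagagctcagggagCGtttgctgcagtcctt
Isl2-001, downstream start, chr9:55388755-55388954, plus strand: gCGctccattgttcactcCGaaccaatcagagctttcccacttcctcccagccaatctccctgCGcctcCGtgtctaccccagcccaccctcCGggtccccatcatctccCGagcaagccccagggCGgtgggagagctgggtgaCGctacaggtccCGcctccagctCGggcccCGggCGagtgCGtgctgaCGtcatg
Isl1, first start, chr13:117099897-117100096, minus strand: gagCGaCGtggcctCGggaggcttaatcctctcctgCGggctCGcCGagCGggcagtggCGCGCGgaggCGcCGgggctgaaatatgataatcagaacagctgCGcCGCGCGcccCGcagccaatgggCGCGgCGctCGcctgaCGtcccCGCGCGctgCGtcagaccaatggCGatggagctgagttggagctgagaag
The stretch before the first start of Isl2 holds 3 CG and that before its downstream start 14. For Lhx3 the numbers were 10 and 20, and the stretches at Lhx4 and Isl1 hold 10 and 27. At Lhx3 the 200 bp shown thus hold no fewer CG than at Lhx4. The difference between these genes lies in the wider window (33 and 143 CG). Lhx8, whose stretch is not shown, held only 4 CG in the 200 bp before its first start and 74 in the 2001 bp around it. Peaks of each of the 3 AEBP2 lists nonetheless covered all of these 2001 bp. Few CG in the 200 bp thus did not go with a missing AEBP2 peak at Lhx8. Whether CG content is linked to the missing peaks was not tested. No AEBP2 peak of replicate 1 and no FS2-AEBP2 peak reached the stretches before the first starts of Lhx3 and Isl2. Both genes were picked for a missing AEBP2 peak at the first start, so this in part restates the choice. AEBP2 replicate 2 covered part of that of Isl2 and none of that of Lhx3. The Isl2 stretch nonetheless lay wholly inside H3K27me3 peaks of both replicates. That of Lhx3 was covered by H3K27me3 in part in replicate 1 and not at all in replicate 2. The other 4 stretches lay wholly inside peaks of both AEBP2 replicates and both H3K27me3 replicates, and FS2-AEBP2 peaks covered 38.0% of that of Isl2-001, 53.5% of that of Lhx4 and 100% of those of Lhx3-001 and Isl1.

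To ask which members carry AEBP2 and the mark at their start, peaks within 1 kb of the first start were counted. Every member had an H3K27me3 peak there in both replicates, and nearly every member had AEBP2. AEBP2 replicate 1 had a peak at 9 of the 10 starts, where 9.08% of all protein-coding starts had one (95% Wilson interval 8.72 to 9.47). AEBP2 replicate 2 had a peak at all 10, against 22.3% of all starts, and FS2-AEBP2 at 9, against 6.53%. The H3K27me3 lists each had a peak at all 10, against 17.0% of all starts in replicate 1 and 17.7% in replicate 2. AEBP2 peaks of both replicates were found at 9 members (8.44% of all starts), H3K27me3 peaks of both at 10 (15%), and peaks of all 3 AEBP2 lists at 8 (4.72%). The same 8 members had a peak in all 5 lists, as 4.57% of all starts did, and none was without a peak, whereas 68.5% of all starts had no peak in any list.

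The 2 members missing from 1 list each were Lhx3, without a peak in AEBP2 replicate 1, and Isl2, without an FS2-AEBP2 peak. AEBP2 was more common at starts with CpG-rich sequence or with the mark than at all starts, and the members were set against these too. A CpG-island-like region (windows of 500 bp with at least 55% GC and at least 0.65 of the CpG that their C and G content predicts, joined) lay within 1 kb of 12312 starts, and 16.0%, 39.0% and 11.4% of these had a peak in AEBP2 replicates 1 and 2 and for FS2-AEBP2. Among the 3349 starts with H3K27me3 in both replicates the shares were 40.9%, 68.3% and 38.2%. The members' 9, 10 and 9 of 10 stood above each of these shares.

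**Figure D1:**
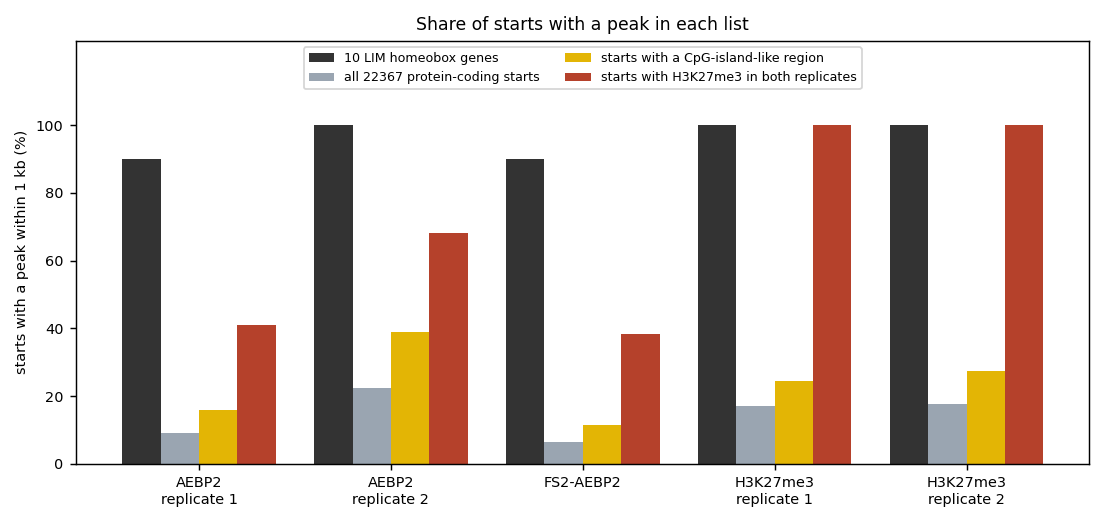
Share of starts with a peak within 1 kb (%, linear axis from 0) in each of the 5 lists, for the 10 LIM homeobox genes, all 22367 protein-coding starts, the 12312 with a CpG-island-like region and the 3349 with H3K27me3 in both replicates, which are at 100% in the H3K27me3 lists by definition. The members stand at 9 or 10 of 10 in every list, and all protein-coding starts between 6.53% and 22.3%.

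The peaks at the members' starts were long. Where a member had a peak at its start, the median length over members was 7148 bp in AEBP2 replicate 1, 8645 bp in AEBP2 replicate 2 and 7716 bp for FS2-AEBP2. For the mark it was 22314 bp in replicate 1 and 20464 bp in replicate 2. The corresponding medians over the peaks at all protein-coding starts were 1244, 872, 1409, 4864 and 3970 bp. The median member peak was longer than 95.7% and 97.7% of the peaks of the AEBP2 lists, 95% of the FS2-AEBP2 peaks and 99.0% of the peaks of each H3K27me3 list. By score, the median member peak stood above 94.3%, 96.1%, 95.6%, 96.5% and 98.3% of its list, in the same order. The H3K27me3 peaks were uniform in this respect, since none stood below 93.3%, whereas the AEBP2 peaks ranged from 54.7% to 95.3% in replicate 1, from 80.7% to 98.9% in replicate 2 and from 48.6% to 99.2% for FS2-AEBP2. The lists differ in this beyond the members. Over the peaks at all protein-coding starts the median score rank was 47.2%, 51.9%, 57.5%, 79.4% and 71.6%, in the same order.

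**Figure D2:**
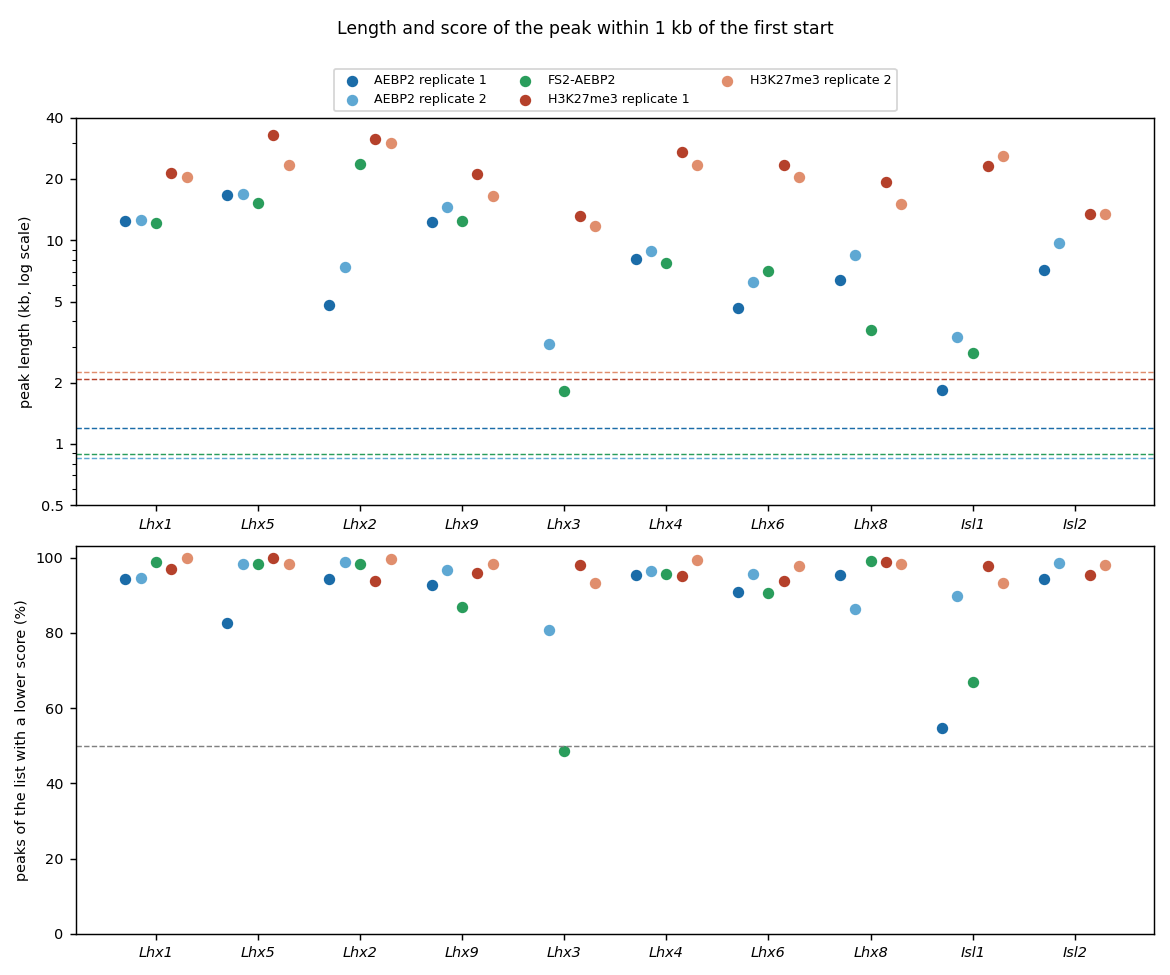
Length (upper panel, kb, log axis) and score rank (lower panel, percentage of the list's peaks with a lower score, linear axis) of the peak within 1 kb of each member's first start, 1 point per list, with dashed lines at the median length of each list in the upper panel and at 50% in the lower. All points lie above the median length of their list, and the lowest ranks are those of Lhx3 for FS2-AEBP2 (48.6%) and Isl1 in AEBP2 replicate 1 (54.7%).

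Lhx1 and Lhx5, closely related factors of the early head organiser and the forebrain, had AEBP2 over most of the gene in each list. Lhx1 (ENSMUSG00000018698, chr11:84331479-84338923, minus strand) had 1 AEBP2 peak over its start of 12477 bp in replicate 1 and 12575 bp in replicate 2, and an FS2-AEBP2 peak of 12147 bp. These 3 peaks had nearly the same ends, from 5451 to 5687 bp upstream and from 6695 to 6918 bp downstream of the start. Its H3K27me3 peaks were 21404 bp and 20489 bp long, and the second had a score of 45, rank 13 of its list. Lhx5 (ENSMUSG00000029595, chr5:120881895-120891466, plus strand) had the longest endogenous AEBP2 peaks over the first start of any member, at 16680 bp and 16951 bp, with an FS2-AEBP2 peak of 15190 bp. The ends of its AEBP2 peaks differed between the replicates by 263 bp upstream and 8 bp downstream. Its H3K27me3 peak in replicate 1 was the longest of any member at 32874 bp and had a score of 50, rank 8 of its list, while that of replicate 2 was 23448 bp long. AEBP2 peaks covered at least 89.9% of the gene body of both genes in each of the 3 lists.

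Lhx2 and Lhx9 are the relatives of Drosophila apterous. Lhx2 is required for the eye and the forebrain, and Lhx9 for the gonad. At Lhx2 (ENSMUSG00000000247, chr2:38194801-38225253, plus strand) the lists divided the same stretch differently. AEBP2 replicate 1 had a peak of 4831 bp at the first start and replicate 2 one of 7363 bp, each followed by a further peak inside the gene, while FS2-AEBP2 had 1 peak of 23661 bp, longer than 99.8% of its list. The H3K27me3 peaks were 31451 bp and 30069 bp. AEBP2 peaks covered 54.4% and 71.8% of the gene body and FS2-AEBP2 68.7%, so the tagged protein lay between the replicates by this measure. Lhx9 (ENSMUSG00000019230, chr1:140721763-140745153, minus strand) had AEBP2 peaks of 12336 bp and 14599 bp, an FS2-AEBP2 peak of 12428 bp, and H3K27me3 peaks of 21052 bp and 16424 bp. All of these lay mainly downstream of its first start: AEBP2 reached 792 bp and 1784 bp upstream and 11543 bp and 12814 bp downstream.

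Lhx3 and Lhx4, which act in the pituitary and in motor neurons, differed at their first starts. Lhx4 (ENSMUSG00000026468, chr1:157548827-157589157, minus strand) had AEBP2 peaks of 8093 bp and 8856 bp, an FS2-AEBP2 peak of 7716 bp, and H3K27me3 peaks of 27056 bp and 23325 bp. Their scores stood above 95.3%, 96.5%, 95.6%, 95% and 99.4% of the lists. Lhx3 (ENSMUSG00000026934, chr2:26055732-26063769, minus strand) had no peak within 1 kb in AEBP2 replicate 1, where the nearest peak began 1090 bp downstream of the first start. In replicate 2 it had a peak of 3076 bp that ended 42 bp short of the start, and for FS2-AEBP2 one of 1818 bp with a score of 9, above 48.6% of its list. Its H3K27me3 peaks, 13213 bp and 11699 bp, were the shortest of the members in each list, but their scores stood above 98.0% and 93.3% of the lists. The first of them passed the first start by 56 bp and the second ended 134 bp short of it. Inside the gene the cover was wider, with 74.7% and 88.1% of the Lhx3 gene body under AEBP2 peaks, 58.1% under FS2-AEBP2 and 100% and 98.3% under H3K27me3.

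Lhx6 and Lhx8, the relatives of Drosophila arrowhead that act in forebrain interneurons and cholinergic neurons, had AEBP2 peaks in both replicates that were shorter than the members' medians. Lhx6 (ENSMUSG00000026890, chr2:35937470-35960928, minus strand) had AEBP2 peaks of 4656 bp and 6224 bp, an FS2-AEBP2 peak of 7059 bp and, for the mark, peaks of 23456 bp and 20438 bp. Its AEBP2 cover depended on the replicate, with 1 peak over 17.0% of the gene body in replicate 1 and 4 peaks over 43.8% in replicate 2. Lhx8 (ENSMUSG00000028201, chr3:153969260-153993615, minus strand) had AEBP2 peaks of 6373 bp and 8434 bp, an FS2-AEBP2 peak of 3634 bp, and H3K27me3 peaks of 19380 bp and 15147 bp. Short as it was, its FS2-AEBP2 peak had a score of 91, rank 20 of the list and the highest rank of a member there. Its AEBP2 scores stood above 95.3% of replicate 1 and 86.4% of replicate 2.

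Isl1 and Isl2 specify motor neurons, and Isl1 also marks cardiac progenitors and pancreatic islets. Isl1 (ENSMUSG00000042258, chr13:117088478-117099896, minus strand) had the weakest AEBP2 peak of the members in replicate 1, 1837 bp with a score of 8, above 54.7% of the list. In replicate 2 the peak was 3361 bp long, with a score above 89.9% of the list, and for FS2-AEBP2 2799 bp and 66.8%. The mark was nonetheless broad at Isl1, with H3K27me3 peaks of 23224 bp and 26018 bp that covered the whole gene. Isl2 (ENSMUSG00000032318, chr9:55386479-55393987, plus strand) had shorter H3K27me3 peaks, 13401 bp and 13520 bp, and longer AEBP2 peaks, 7148 bp and 9641 bp. The AEBP2 peak of replicate 1 began 865 bp downstream of its first start and that of replicate 2 began 40 bp upstream. The nearest FS2-AEBP2 peak began 1206 bp downstream, outside the window. AEBP2 peaks covered 88.5% and 100% of the Isl2 gene body, FS2-AEBP2 77.9%, and H3K27me3 100% in both replicates.

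**Figure D3:**
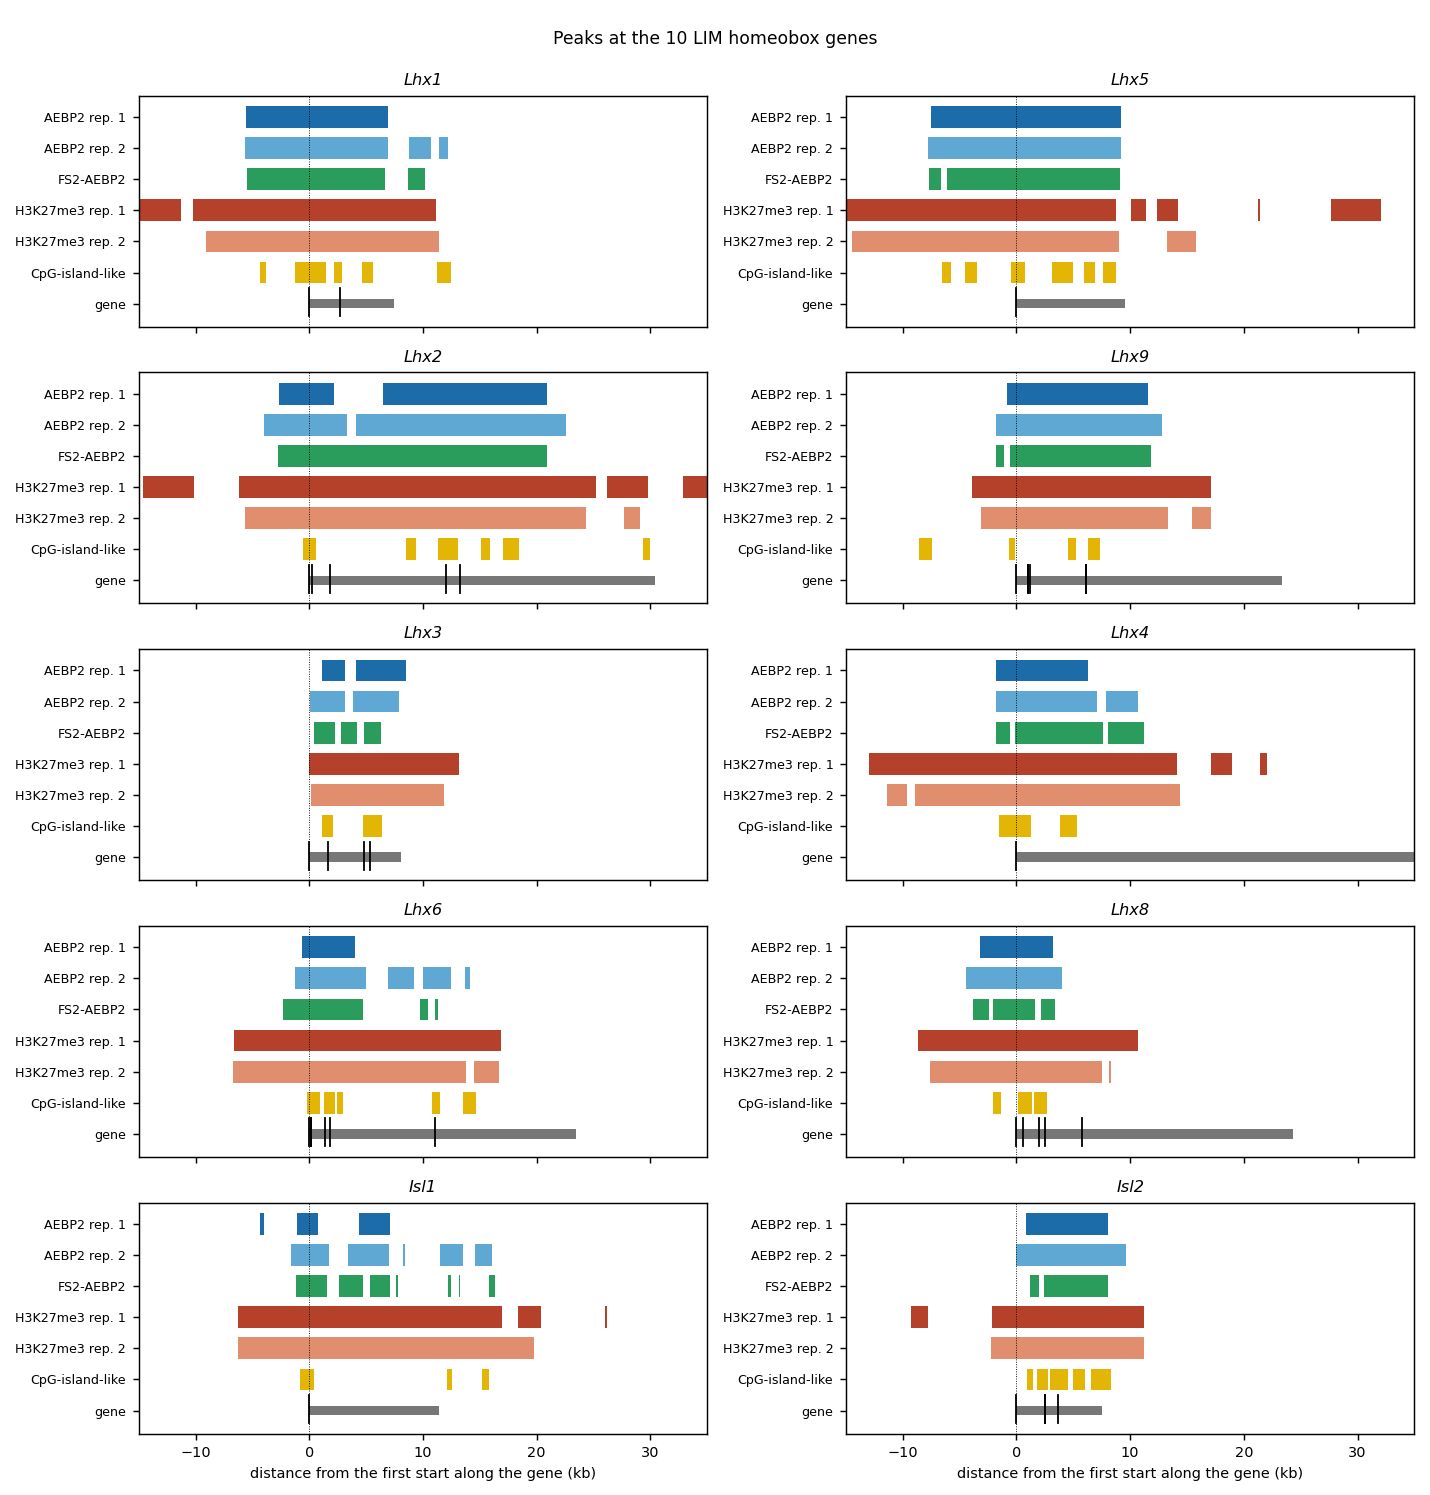
Peaks of the 5 lists, CpG-island-like regions, gene bodies (grey) and annotated transcript starts (black ticks) at the 10 members, against the distance from the first start along the gene (kb, linear axis from 15 kb before the start to 35 kb after it, beyond which peaks and the Lhx4 gene continue), with paralogues side by side. AEBP2 and FS2-AEBP2 peaks sit almost wholly inside the longer H3K27me3 peaks, in 1 block in each AEBP2 replicate at Lhx5 and in 3, 5 and 7 separate peaks of AEBP2 replicates 1 and 2 and FS2-AEBP2 at Isl1.

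Lhx3 and Isl2 are among the 7 members with more than 1 annotated start, as 56.0% of all protein-coding genes are. Isl2-004, which sets the first start of Isl2, is annotated as a processed transcript, and the protein-coding Isl2-001 starts 2476 bp further along. Lhx3-001 starts 1674 bp after Lhx3-002, and both are annotated as protein-coding. At these downstream starts all 5 lists had a peak within 1 kb. The 2001 bp around the first starts of Lhx3 and Isl2 held 33 and 24 CG, with observed to expected ratios of 0.239 and 0.201, the lowest of the members, against 84 and 95 CG around the downstream starts. Over all genes the median was 61.0 CG and a ratio of 0.468, and over the members 104 CG and 0.618. A CpG-island-like region lay within 1 kb of the first start of 9 members, all but Lhx3, and of 55% of all starts. That of Isl2 only just entered the window, since it began 962 bp downstream of the start, and the nearest at Lhx3 began 1159 bp downstream.

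The members have 35 distinct annotated starts. Of these, 32 had a peak within 1 kb in AEBP2 replicate 1, 34 in replicate 2, 33 for FS2-AEBP2 and 35 in each H3K27me3 replicate, and 31 had a peak in all 5 lists. Every member had at least 1 start with a peak in all 5. The shares over all annotated starts, and of all genes with such a start, were not counted, so these numbers stand without a background. Apart from the first starts of Lhx3 and Isl2, the starts missing from a list were that of Lhx6-006, a processed transcript 11034 bp inside the gene that lacked AEBP2 replicate 1, and that of Lhx8-005, a retained intron 5768 bp inside the gene that lacked the 3 AEBP2 lists. Starts of 1 gene share sequence and peaks and are not independent of each other.

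To describe how far the cover extends, the share of the 20 kb around each first start under peaks was computed. The median over the members was 38.1% and 51.5% for AEBP2, 45.4% for FS2-AEBP2, and 82.3% and 79.9% for H3K27me3. The median over all protein-coding genes was 0 in each list, and their 90th percentile was 1.54%, 6.37%, 0, 26.3% and 22.3%. Every member exceeded at least 96.1% of all genes in every list. Lhx5 had the highest AEBP2 share, 83.4% and 84.8%, and Lhx6 the lowest in replicate 1, 23.3%. Lhx3 had the lowest in replicate 2, 35.4%. For H3K27me3, Lhx1 and Lhx4 reached 100% in replicate 1, and Lhx3 had the lowest share in both replicates, 50.3% and 49.3%.

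The peak at the start reached further downstream than upstream in most members, as it did at most starts with a peak. In AEBP2 replicate 1 this held for 6 of 9 members and 73.4% of all starts with a peak, in AEBP2 replicate 2 for 8 of 10 and 73.4%, and for FS2-AEBP2 for 8 of 9 and 77.0%. For H3K27me3 it held for 9 of 10 members and 66.5% in replicate 1, and for 8 of 10 and 68.6% in replicate 2. The start used is the first of a gene, and 7 of the 10 members have further starts downstream. The median AEBP2 reach at the members was 1789 bp upstream and 6303 bp downstream in replicate 1, and 1782 bp and 5942 bp in replicate 2. Lhx3 and Isl2 had next to no AEBP2 before the gene, with 0 and at most 0.400% of the 10 kb there under AEBP2 peaks of either replicate. At Lhx5, by contrast, 75.1% and 77.7% of the 10 kb before the gene lay under AEBP2. Lhx8 was covered more before the gene (31.9% and 44.2%) than within it (13.1% and 16.5%), and Lhx4 had H3K27me3 over 100% and 93.1% of the 10 kb before the gene but over 41.1% and 35.8% of its gene body of 40331 bp.

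**Figure D4:**
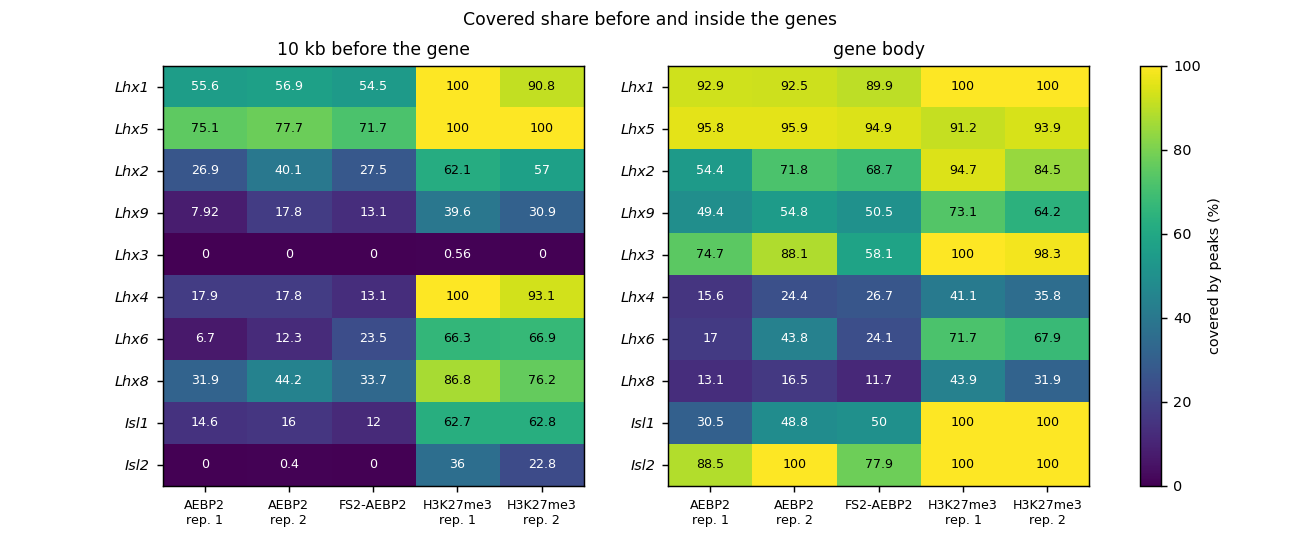
Share of the 10 kb before each gene (left) and of its gene body (right) covered by peaks of each list (%, colour scale from 0 to 100, value printed in each cell). Lhx3 and Isl2 are at or near 0 before the gene in the AEBP2 lists and at 58.1% or more inside it, whereas Lhx8 is covered more before the gene than inside it.

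The AEBP2 peaks of the members lay almost wholly inside the mark. Within each gene and 10 kb on either side, from 95.1% to 100% of the base pairs under AEBP2 or FS2-AEBP2 peaks were also under H3K27me3 peaks of both replicates. The lowest value was that of AEBP2 replicate 2 at Lhx1, which had 3 AEBP2 peaks there. H3K27me3 peaks covered from 34.7% (Lhx8, replicate 2) to 82.8% (Isl1, replicate 2) of these regions. The same share was not computed for other genes, so whether it is particular to the members is unknown. The H3K27me3 peak at each start was in turn filled with AEBP2 to different degrees. In the H3K27me3 peak of replicate 1, AEBP2 replicate 1 covered a median of 49.2% of the peak (from 19.8% at Lhx6 to 61.2% at Lhx2), AEBP2 replicate 2 51.9% (from 42.9% at Lhx4 to 82.3% at Lhx2) and FS2-AEBP2 46.2% (from 32.1% at Lhx8 to 75.2% at Lhx2). At the 1023 starts with a peak in all 5 lists the medians were 32.0%, 43.5% and 28.7%. Among the 339 of these whose H3K27me3 peak was at least 13213 bp long, the length of the shortest member peak, the medians were 39.6%, 53.7% and 42.9%, nearer to those of the members. In the H3K27me3 peak of replicate 2 the members' medians were 54.1%, 65.4% and 49.6%, against 49.8%, 67.6% and 59.0% over the 305 such starts with a peak of at least 11699 bp, so FS2-AEBP2 filled the members' peaks less than the median of these.

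No other protein-coding start lay inside the H3K27me3 peak over a member's start, in 0 of 10 peaks in either replicate. Of the peaks over the 1023 starts found in all 5 lists, 16.3% in replicate 1 and 16.7% in replicate 2 held a further protein-coding start. Among those at least as long as the shortest member peak it was 27.4% of 339 and 31.5% of 305.

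The replicates differed in the length and the ends of the members' peaks, for AEBP2 and for the mark. AEBP2 peaks were longer in replicate 2 at 9 of 9 members with a peak in both, by a ratio from 1.01 (Lhx1) to 1.83 (Isl1), although the median peak of the whole replicate 2 list was the shorter. H3K27me3 peaks were longer in replicate 2 at Isl1 and Isl2 alone among the 10, with ratios from 0.713 (Lhx5) to 1.12 (Isl1). The same was not counted over all starts with a peak in both replicates. Whether these counts are particular to the members is therefore unknown. The list medians are no matched comparison, since the AEBP2 lists hold 2877 and 6779 peaks. The ends of the start peaks moved between replicates by a median of 556 bp upstream and 1012 bp downstream for AEBP2, and 690 bp and 1098 bp for H3K27me3. Within each gene and 10 kb on either side, AEBP2 base pairs found in both replicates made up from 40.2% (Isl1) and 40.5% (Lhx6) to 98.4% (Lhx5) of those found in either. For H3K27me3 the share ran from 77.6% (Lhx2) to 95.9% (Lhx6), and at Lhx5 it was 82.7%, below that of AEBP2. At Isl1 replicate 1 had 3 AEBP2 peaks in this region, replicate 2 had 5 and FS2-AEBP2 7, and at Lhx6 they had 1, 4 and 3. With 2 replicates and no read counts, the part of sequencing depth in these differences was not tested.

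Most CpG-island-like regions along the genes had peaks of AEBP2 and of H3K27me3. Whether peaks lay over these regions more than over the sequence between them was not tested. The 10 genes with 10 kb on either side held 41 such regions, of which 34 had a peak in AEBP2 replicate 1, 39 in replicate 2, 37 for FS2-AEBP2 and 39 in each H3K27me3 replicate. Of the 20675 regions genome-wide, 15.2%, 31.9%, 12.4%, 25.5% and 27.1% did. Among the 38 members' regions with H3K27me3 in both replicates, 34, 38 and 37 had a peak in AEBP2 replicates 1 and 2 and for FS2-AEBP2, against 49.9%, 76.8% and 47.2% of the 4925 such regions genome-wide. The region without a peak in any list was the one of 1170 bp at chr1:140752601-140753770, upstream of Lhx9. The last region of Lhx2, 540 bp at chr2:38224191-38224730, had H3K27me3 in replicate 1 alone.

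Members with more CpG-island-like sequence tended to have more sequence under AEBP2. Lhx5, with 7040 bp in 6 regions, had 16680 bp and 16951 bp under AEBP2, and Isl1, with 2360 bp in 3 regions, had 4946 bp and 10691 bp. Across the 10 genes Pearson's r was 0.72 and 0.67 for the AEBP2 replicates and 0.67 for FS2-AEBP2, and Spearman's rho 0.72, 0.76 and 0.76. For the H3K27me3 replicates r was 0.33 and 0.30 and rho 0.28 and 0.24. The 10 points share the same libraries, and the regions searched differ in length from 27445 bp (Lhx1) to 60331 bp (Lhx4), so these coefficients are a description. Several genes departed from the trend. Isl2, with 6000 bp of CpG-island-like sequence, had 7148 bp and 9641 bp under AEBP2, less than Lhx1 with 6130 bp. Lhx9, with 3550 bp, had 12336 bp and 14599 bp, more than Lhx6 with 4460 bp (4656 bp and 11493 bp).

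**Figure D5:**
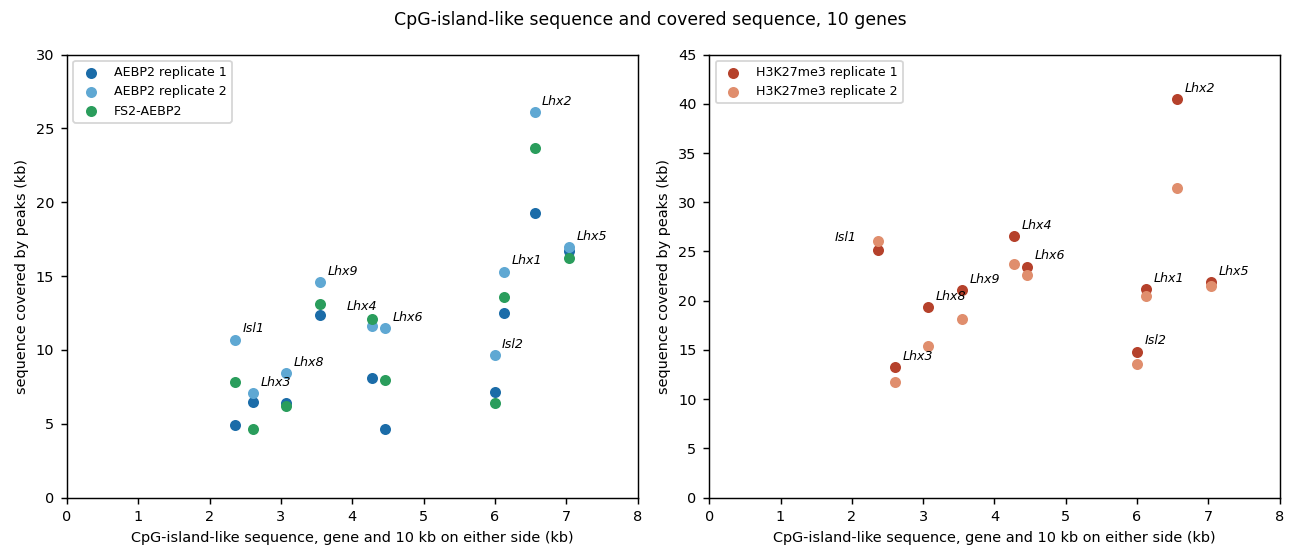
Sequence covered by peaks (kb) against CpG-island-like sequence (kb) in each gene and 10 kb on either side, for the AEBP2 and FS2-AEBP2 lists (left) and the H3K27me3 lists (right), 1 point per gene and list on linear axes. Covered sequence goes up with island sequence for AEBP2 (r of 0.72 and 0.67) and less so for H3K27me3 (r of 0.33 and 0.30).

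Beside the members, 12 genes related to them by family or by function were read in the same way, and they differed among themselves. The remaining LIM homeobox genes, Lmx1a and Lmx1b, which act in dopaminergic neurons and the dorsal limb, had a peak at the start in all 5 lists. At Lmx1b the AEBP2 peaks were 19039 bp and 20993 bp, the FS2-AEBP2 peak 17295 bp and the H3K27me3 peaks 56743 bp and 90552 bp, each longer than the members' peaks except for FS2-AEBP2 at Lhx2. Of the LIM-only genes, whose products compete with LIM homeobox proteins for LDB1, Lmo1 had a peak in 4 lists and lacked FS2-AEBP2, and Lmo2, Lmo3 and Lmo4 had none. The H3K27me3 peaks of Lmo1, 14905 bp and 13279 bp, were within the range of the members' peaks. Of the cofactor genes, Ldb1 and Ssbp4 had a peak in AEBP2 replicate 2 only (868 bp and 1255 bp), Ssbp2 in AEBP2 replicate 2 (2141 bp) and for FS2-AEBP2 (187 bp), and Ldb2, Ssbp3 and Rlim, which encodes a ubiquitin ligase for LDB1, had none. None of the 6 cofactor genes had an H3K27me3 peak in either replicate. Only 17.0% and 17.7% of all starts had one, so 6 genes without the mark are not unusual. Over all 12 genes the counts were 3, 6 and 3 in the AEBP2 and FS2-AEBP2 lists and 3 in each H3K27me3 list. Lmx1a and Lmx1b made up 2 of these in every list. The shares of all protein-coding starts were 9.08%, 22.3%, 6.53%, 17.0% and 17.7%, in the same order. Of the 12 genes, 6 had no peak in any list, against 68.5% of all starts.

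For comparison, 6 genes active in mESCs were read for the mark. None had H3K27me3 at the start in both replicates, and Pou5f1, Nanog, Sox2, Esrrb and Zfp42 had no peak in any list. Klf4 had an H3K27me3 peak of 602 bp in replicate 1 and an FS2-AEBP2 peak of 675 bp. Peaks do not measure expression, so this check is indirect.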

How the data were processed

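ChIP-seq of AEBP2, H3K27me3 and FS2-AEBP2 in wild-type mESCs was analysed as 5 lists of peaks, called by the authors in each sample. The other 8 of the 13 samples (SUZ12, inputs and AEBP2 knockout cells) were not analysed here. The submitters' processing notes name Bowtie, SAMtools, Picard and MACS2 2.0.10.2 and the build mm9. The deposited lists give each peak's ends, a whole-number score of unstated scale, and stronger sub-peaks. Groups followed the sample records, and the H3K27me3 lists seem to be named with the opposite replicate numbers, so which of them is replicate 1 is uncertain. Peaks on other sequences than chromosomes 1 to 19, X and Y were left out (2 in AEBP2 replicate 1 and 13 in H3K27me3 replicate 2). An overlap of 1 bp counted. Where several peaks lay within 1 kb of a start, the longest gave the length and the highest-scoring the score. CpG-island-like regions came from windows taken every 10 bp in the mm9 sequence. The counting was tested on simulated peaks. The members and lists of genes were chosen with earlier results of these data known, and all members are named. Python 3.11.15 with numpy 2.4.6, pandas 2.3.3, pysam 0.24.0, statsmodels 0.14.6 and matplotlib 3.10.9 was used. Alternatives for the window, overlap, score threshold, start and replicates are given in the closing section.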

Additional observations from a re-analysis of the deposited data

How the results depend on the processing

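The counts of members moved by at most 2 of 10 under every alternative. With 2.5 kb on either side of the start, or with any annotated transcript start, all 10 members had a peak in all 5 lists, and with the start base itself inside the peak, or at least 50% of the window covered, 8 did. The share of all protein-coding genes with a peak in all 5 lists was not counted under these alternatives. Leaving out each replicate gave 9 to 10 members for AEBP2 and 10 for H3K27me3. With AEBP2 and H3K27me3 peaks of the same replicate number read together, as a replicate block, the count was 9, as without the block. H3K27me3 was at all 10 members in both replicates, so the block had little room to change the count. Whether the numbers pair the samples could not be checked from lists without read counts.

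The shares of all protein-coding starts moved by construction with the window and the threshold. In the order AEBP2 replicate 1, AEBP2 replicate 2, FS2-AEBP2, H3K27me3 replicate 1 and H3K27me3 replicate 2, they were 9.59%, 23.4%, 7.07%, 18.7% and 19.1% at 2.5 kb, and 6.43%, 17.1%, 3.24%, 13.4% and 11.4% for the start base. They were 4.17%, 8.69%, 2.92%, 13.3% and 12.3% with at least 50% of the window covered, and 5.15%, 13.5%, 3.94%, 14.4% and 13.6% for peaks that score no lower than their list's median. They were 9.90%, 24.0%, 7.15%, 18.5% and 19.3% for any transcript start. Around the members' starts, the median share of 10 kb in place of 20 kb under peaks was 53.1%, 67.8%, 63.1%, 100% and 100%.

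Ranked among the peaks at protein-coding starts alone, the median member peak was longer than 94.0% in AEBP2 replicate 1, 91.4% for FS2-AEBP2, and 97.0% and 97.8% in the H3K27me3 replicates, and its score was above 92.4% in AEBP2 replicate 1, 92.2% for FS2-AEBP2 and 88.8% in H3K27me3 replicate 1. With peaks within 1 kb joined, the H3K27me3 lengths stood above 98.3% and 98.4%. Under the other alternatives run, the medians of length rank, score rank and covered share moved by no more than 1 SD of the replicates of the target (of AEBP2 for FS2-AEBP2). The depth of the libraries is unknown and limits any reading of missing peaks.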

Other observations

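The deposited peaks carry blocks that mark stronger sub-peaks within a broad peak. In the members' start peaks these took a median of 64.1% and 67.5% of the length in AEBP2 replicates 1 and 2, 75.8% for FS2-AEBP2, and 69.8% and 82.0% for H3K27me3. The medians over all peaks of the lists were 44.4%, 52.1%, 50.3%, 31.8% and 40.2%, and the members' peaks were not compared with others of their length. Isl1 had the lowest share of the members in every list, from 26.1% for FS2-AEBP2 to 63.6% in H3K27me3 replicate 2.

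The bipartite word CTT followed after 15 to 23 bases by CAGGCC, searched on both strands of the 2001 bp around the first start, was found at Lhx3 and Lhx8. That is 2 of 10 members, and 21.5% of all protein-coding starts held it.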
